A study of Mus musculus with 4 samples.

Results

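The replication-dependent histone genes were the 64 genes of the deposited table, out of 17561, whose symbol begins with Hist1h, Hist2h, Hist3h or Hist4h. They encode the linker histone H1 (6 genes) and the core histones H2A (17), H2B (16), H3 (12) and H4 (13). Chromatin is built from nucleosomes, in which DNA wraps around the core histones and H1 binds where the DNA enters and leaves. A dividing T cell must package a second genome, and these genes are transcribed chiefly in S phase for that purpose. Most of their mRNAs end in a conserved stem-loop bound by SLBP instead of a poly(A) tail, and they are degraded once DNA synthesis stops.

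CD8+ T cells were sorted from the BM of mice 4 weeks after SCT and profiled with a droplet method that reads the 5′ end of each captured mRNA. According to the paper, recipient mice were injected with myeloma cells before SCT. There were 4 groups with 1 library each, made from 5 pooled mice: isotype control (cIg) with vehicle, TIGIT inhibition (αTIGIT) with vehicle, cIg with lenalidomide, and αTIGIT with lenalidomide. Antibody was given from the day of SCT and lenalidomide or vehicle from day 14 to harvest on day 28. Recipients and donors of every group were on a C57BL/6 background, either WT or CRBN transgenic (with a modified mouse cereblon, the protein that lenalidomide binds), and all were given donor BM with T cells.

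The deposited tables number the libraries 1 to 4 without naming a treatment, and which number belongs to which treatment is unknown here. Each group is a single library without replicates, so no test was made, cells were not treated as replicates, and the main values are given for the single libraries. Values for which no library is named are over all libraries together. The libraries held 4237, 2003, 1725 and 3789 cells and between 15556967 and 38440687 UMIs, where a UMI marks 1 captured mRNA molecule whatever its length. Between libraries, 56 barcode sequences occurred more than once. Levels are CPM, the UMIs of a gene summed over cells, divided by all UMIs of those cells and scaled in the usual way for that unit. Intervals are at the 95% level, exact Poisson for CPM and exact conditional binomial for ratios, and cover counting error only. The 8 cluster names are the authors', and since the clusters rest on the same expression values, a difference between clusters is a description.

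The stem-loop could be read from the annotation for most members. Within 150 bases after the stop codon, 46 of the 51 members with at least 20 annotated bases there held a hairpin with a 6-base stem that begins GG and ends CC and a 4-base loop. Among other genes 1.99% held one. The stem-loops of the most counted member of each class are shown, with Hist1h2ab, whose level differed between libraries, and Hist4h4, whose level was even, and the stem is in capitals (GENCODE M21 transcripts, GRCm38, 5′ to 3′).
Hist1h1e (H1, chr13:23621777-23621802, minus strand): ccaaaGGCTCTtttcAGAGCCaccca
Hist1h2ae (H2A, chr13:23570663-23570688, minus strand): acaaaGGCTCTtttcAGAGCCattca
Hist1h2ab (H2A, chr13:23751567-23751592, plus strand): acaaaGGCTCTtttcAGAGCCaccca
Hist1h2bj (H2B, chr13:22043633-22043658, plus strand): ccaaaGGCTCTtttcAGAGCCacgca
Hist1h3e (H3, chr13:23561898-23561923, minus strand): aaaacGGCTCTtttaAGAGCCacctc
Hist1h4d (H4, chr13:23581945-23581970, plus strand): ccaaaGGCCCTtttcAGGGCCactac
Hist4h4 (H4, chr6:136803993-136804018, minus strand): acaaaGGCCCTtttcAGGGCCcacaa
In these sequences the H1, H2A, H2B and H3 genes shared the same stem, and both H4 genes shared a different one.

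The members lie in 4 places in the genome. Chromosome 13 held 51 of them within 2049 kb and 93.5% of all member UMIs, chromosome 3 held 10 with 5.32%, chromosome 11 held 2 and chromosome 6 held Hist4h4. RefSeq promoters (GRCm38.p6, 250 bases before to 50 after the start) were matched for 58 members and searched on both strands for 4 motifs. CCAAT was found in all 46 promoters of H1, H2A, H2B and H3 genes and in 3 of the 12 of H4 genes, against 37.4% of all 32851 promoters. The octamer ATTTGCAT was found in 6 of 16 H2A and 5 of 14 H2B promoters, in none of the 28 others, and in 1.74% of all promoters. AAACACA, a letter sequence known from H1 promoters, was in 5 of 6 H1 promoters and in 7.18% of all, and TATAAA was in 33 of 58 member promoters against 13.6% of all. A match is a description of letters and not a binding site.

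The 150 bases before the start of an H1, an H2B and an H4 gene show how the motifs lie, with every match to the 4 motifs in capitals (5′ to 3′ on the strand of the gene). Hist1h4d was one of the 3 H4 promoters with CCAAT, and Hist1h2bm was the 1 H2B promoter with AAACACA.
Hist1h1b (chr13:21780626-21780775, minus strand): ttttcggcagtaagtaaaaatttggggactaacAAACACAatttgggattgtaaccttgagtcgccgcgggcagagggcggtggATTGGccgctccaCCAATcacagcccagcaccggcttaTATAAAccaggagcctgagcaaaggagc
Hist1h2bm (chr13:21721894-21722043, plus strand): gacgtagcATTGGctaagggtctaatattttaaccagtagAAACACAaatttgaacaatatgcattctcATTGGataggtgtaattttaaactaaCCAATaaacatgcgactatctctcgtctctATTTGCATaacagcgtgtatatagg
Hist1h4d (chr13:23581418-23581567, plus strand): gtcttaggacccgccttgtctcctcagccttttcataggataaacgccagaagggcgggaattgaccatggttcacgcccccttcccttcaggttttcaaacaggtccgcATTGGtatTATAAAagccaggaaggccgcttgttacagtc
ATTGG is CCAAT read on the other strand. Hist1h2bm held the octamer near its start, which neither of the others did.

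Histone mRNA was far more abundant in the cycling cluster than in any other. The 64 genes together had 3995, 4397, 6842 and 4363 CPM in the cycling cells of libraries 1 to 4, against 758, 425, 1222 and 383 CPM over the 5 clusters of Teff and Tex. Library 3 was highest in both. The ratio of cycling cells to Teff and Tex clusters was 7.27-fold over all libraries together (7.17 to 7.36), and 5.27-, 10.3-, 5.6- and 11.4-fold in libraries 1 to 4. Libraries 1 and 3 had the lower ratios. Histone mRNA made up 0.463% of all UMIs of the cycling cells, and the median cycling cell held 32 member UMIs.

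Genes of the S and G2/M lists were also higher in the cycling cluster. Of 49 S phase genes 40, and of 54 G2/M genes 53, were at least 2-fold higher in cycling cells than in Teff and Tex clusters. Of all 12962 genes tested 4.35% were, and no gene of either list was 2-fold lower. The clusters rest on the same expression values, so these counts describe the cluster and do not test its name. The 6 markers of CD8+ T cells summed to 5298 to 6145 CPM in the cycling cells of a library. The 9 macrophage markers summed to 291 to 398 CPM there, against 93.8 to 104 CPM in Tn and 1359 to 2147 CPM in GzmA+ Tex, and none was at 0 in cycling cells. Most of the sum in Tn and in cycling cells was Ctsb, a lysosomal protease gene (90.2 and 265 CPM). The other 8 summed to 57.4 to 104 CPM in cycling cells, 5.47 to 10.4 CPM in Tn and 1053 to 1754 CPM in GzmA+ Tex. The 7 plasma cell markers summed to 109.5 to 172 CPM in cycling cells, with Mzb1 at 0. Their part in the histone values was not tested.

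**Figure D1:**
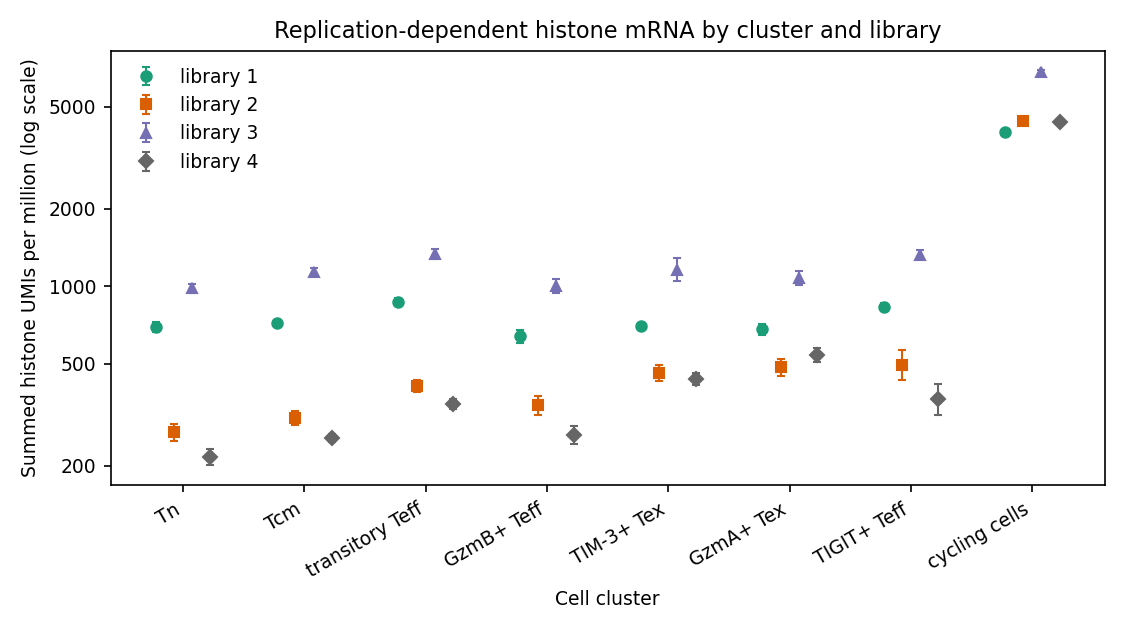
Summed CPM of the 64 histone genes (log axis) in the 8 clusters, one symbol per library, with exact Poisson 95% intervals. Cycling cells lie between 3995 and 6842 CPM, and in each of the other clusters libraries 1 and 3 lie above libraries 2 and 4.

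Libraries 1 and 3 stood apart in every cluster except the cycling one. In Tn cells the 64 genes summed to 695, 270, 980 and 217 CPM in libraries 1 to 4 (intervals 663 to 728, 250 to 291, 943 to 1018 and 201 to 233). Tcm cells had 721, 307, 1141 and 256 CPM. Transitory Teff had 867, 409, 1334 and 348 CPM, and GzmB+ Teff 638, 343, 1003 and 264 CPM. The libraries lay closer together in the exhausted subsets. TIM-3+ Tex had 698, 459.9, 1159 and 435 CPM and GzmA+ Tex 679.5, 484, 1077 and 540.1 CPM. The highest library exceeded the lowest 4.53-fold in Tn and 1.71-fold in cycling cells. Which treatment these libraries received cannot be told from the tables.

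In TIGIT+ Teff the value over all libraries together, 914 CPM, was the highest of the non-cycling clusters, but 436 of its 816 cells came from library 1 and 271 from library 3. Within libraries it had 833, 495, 1326 and 364 CPM. It was above all other non-cycling clusters only in library 2, where its interval (431 to 565 CPM) overlapped those of TIM-3+ Tex and GzmA+ Tex. Transitory Teff had the highest value in libraries 1 and 3, where its intervals (837 to 898 and 1274 to 1397 CPM) overlapped those of TIGIT+ Teff, and GzmA+ Tex had it in library 4.

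The step from Tn to the Teff and Tex clusters was small, varied by library and depended on the denominator. It was 1.20-fold over all libraries together (1.17 to 1.24), and 1.09-, 1.58-, 1.25- and 1.77-fold in libraries 1 to 4. Libraries 2 and 4, with the lowest Tn values, had the largest ratios. By class, H1 (1.5-fold, 1.43 to 1.57) and H2B (1.15-fold, 1.06 to 1.25) had intervals above 1, and H2A, H3 and H4 had intervals that included 1. On the log2 scale the ratio of the sum was 0.27, and it was -0.036 with mitochondrial and ribosomal protein genes left out of the denominator and 0.054 without the H1 genes. Only 1 member (Hist3h2ba, an H2B gene) was at least 2-fold higher in Teff and Tex clusters than in Tn, among 56 members with at least 20 UMIs, against 9.63% of all genes tested.

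A histone UMI was found in nearly every cycling cell but also in most resting cells. The share was 99.7% of cycling cells (Clopper-Pearson 99.3% to 99.9%) and 88.3% of Tn cells (86.5% to 90%), with median depths of 13960 and 7834 UMIs per cell. After each cell was thinned at random to 2500 UMIs, the share was 94.0%, 89.5%, 97.7% and 88.7% of cycling cells in libraries 1 to 4. Among Tn cells it was 82.4%, 46.7%, 88.9% and 40.6%. Cells with at least 3 member UMIs at this depth separated the clusters further, with 72.5% of cycling cells and 18.3% of Tn cells. In Tn they were 27.0%, 4.95%, 44.3% and 1.56% in libraries 1 to 4, highest in library 3 and lowest in library 4. Free RNA in the droplets can give UMIs in cells that do not express a gene, and its part in the Tn values was not tested.

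Member UMIs were unevenly spread among cycling cells. The 25% of cycling cells with the most held 67.2% of the cluster's member UMIs, and 65.6% to 67.0% within single libraries. Cells with 100 or more member UMIs were 20.1%, 24.5%, 29.4% and 25.5% of cycling cells in libraries 1 to 4, and the highest cell held 705. Cells with fewer than 10 were 21%, 30.1%, 6.92% and 29.9%, lowest in library 3.

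Of the 64 members, 56 had at least 20 UMIs over all cells. Among them 48 were at least 2-fold higher in cycling cells than in Teff and Tex clusters (1 CPM added to both sides), or 85.7%, against 4.35% of the 12962 genes tested. In each of the 4 libraries separately 40 members did so, against 3.39% of all genes, and no member was 2-fold lower. The median log2 ratio with 1 CPM added was 2.09 over the members tested and -0.02 over all genes tested. The 5 most counted members held 56.7% of the 170351 member UMIs, and 48 members had at least 100.

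**Figure D2:**
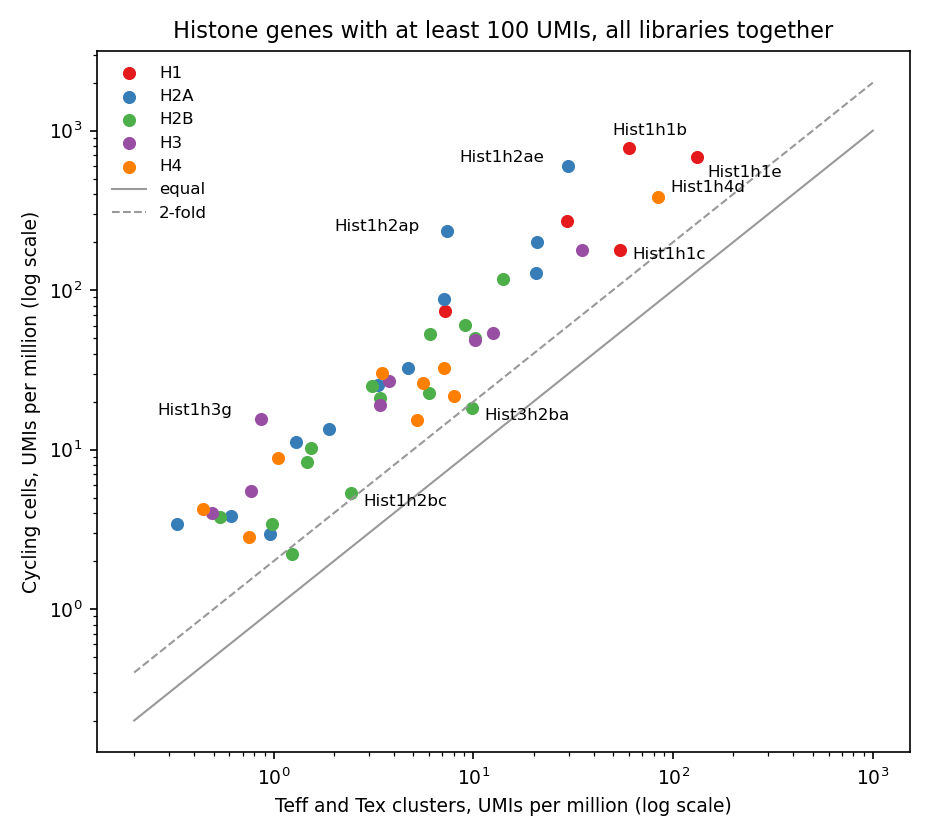
CPM in cycling cells against CPM in Teff and Tex clusters (log axes) for the 48 members with at least 100 UMIs, coloured by histone class, all libraries together. All lie above the line of equality, and Hist1h2ap (31.8-fold) and Hist1h2ae (20.2-fold) lie far above the 2-fold line while Hist3h2ba (1.87-fold) and Hist2h2be (1.77-fold) lie below it.

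Linker histone genes took the largest part of the captured histone mRNA. Library preparation captures mRNA by its poly(A) tail, so class shares are of captured UMIs and not of all histone mRNA in a cell. H1 held 43.0% of the member UMIs in cycling cells (42.7% to 43.3%), with 48.1%, 37.7%, 38.7% and 42.2% in libraries 1 to 4. Hist1h1e, which encodes H1.4, was the most counted member, with 664, 617, 905 and 626 CPM in cycling cells and 145, 107, 188 and 107 CPM in Teff and Tex clusters, a ratio of 5.24 (5.09 to 5.4). Hist1h1b, which encodes H1.5, had 775, 614, 1048 and 699 CPM in cycling cells. Its level in Teff and Tex clusters was 94.0, 26.5, 109 and 21.1 CPM, and its ratio ran from 8.25-fold to 33.2-fold over libraries.

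Hist1h1d (H1.3) and Hist1h1a (H1.1) were 9.19-fold (8.66 to 9.77) and 10.3-fold (9.10 to 11.6) higher in cycling cells. Hist1h1c, which encodes H1.2, differed least of the 5 H1 genes with at least 100 UMIs, at 3.27-fold (3.11 to 3.44; libraries 2.76 to 3.47). It had 174, 129.8, 231 and 173 CPM in cycling cells and 52.1, 47.1, 82.4 and 49.8 CPM in Teff and Tex clusters. The testis gene Hist1h1t had 3 UMIs in all cells.

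As a class, H2A genes differed most between cycling cells and Teff and Tex clusters. Summed, they were 13.5-fold higher in cycling cells, against 7.04-fold for H1, 5.74-fold for H2B, 5.24-fold for H3 and 4.58-fold for H4. Of the 36077 H2A UMIs in cycling cells, 16160 were of Hist1h2ae and 6291 of Hist1h2ap. H2A was the class with the highest ratio in each of the 4 libraries, from 8.08-fold in library 1 to 30-fold in library 4. Hist1h2ae had 509, 708, 809 and 578 CPM in cycling cells and 39.5, 19.4, 54.0 and 14.6 CPM in Teff and Tex clusters (20.2-fold, 19.1 to 21.4). Hist1h2ap had 168, 270.1, 395 and 225 CPM in cycling cells and 6.59, 7.61, 15.6 and 4.83 CPM in the others, the largest ratio of the members with at least 100 UMIs (31.8-fold, 28.4 to 35.7). Hist1h2ap shares most of its sequence with other genes, so its count is uncertain. Hist2h2ac, on chromosome 3, was 6.19-fold higher (5.74 to 6.67).

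Among the other core histones the single genes spread widely. Of the H2B genes, Hist1h2bj was 8.27-fold higher in cycling cells (7.58 to 9.04) and Hist2h2bb 6.66-fold (5.95 to 7.46). Hist3h2ba, on chromosome 11, had 15.5, 17.7, 22.4 and 20.5 CPM in cycling cells against 9.60, 9.20, 12.6 and 9.37 CPM in Teff and Tex clusters. Of the 48 members with at least 100 UMIs, it (1.87-fold, 1.64 to 2.13) and Hist2h2be (1.77-fold, 1.20 to 2.62) had the lowest ratios. Hist1h2bc had 5.37 CPM in GzmA+ Tex and 5.34 CPM in cycling cells, and only Hist3h2a (57 UMIs) also had its highest value outside the cycling cluster among the 56 members tested.

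Of the H3 genes, Hist1h3e had 156, 184, 277 and 153 CPM in cycling cells and 45.9, 20.1, 73.1 and 15.6 CPM in Teff and Tex clusters, or 5.11-fold more (4.82 to 5.42). Of the H4 genes, Hist1h4d had 260.4, 406, 677 and 393 CPM against 83.5, 66.6, 196 and 49.0 CPM, or 4.61-fold more (4.43 to 4.79). Hist4h4, the only member on chromosome 6, had 11.7, 15.6, 17.7 and 19.0 CPM in cycling cells and 4.77, 5.65, 6.31 and 4.99 CPM in the others, 2.94-fold (2.49 to 3.47).

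The make-up of the captured histone mRNA differed between cycling and resting cells. H2A held 29.1% of member UMIs in cycling cells (28.8% to 29.4%) and 17.8% in Tn (16.8% to 18.8%). H4 held 11.6% in cycling cells and 22.7% in Tn (21.7% to 23.8%). Both differences had the same direction in each library, with H2A at 27.3% to 32.9% in cycling cells and 12% to 19.9% in Tn, and H4 at 8.97% to 13.4% and 17.4% to 28.3%. The H1 share was higher than in Tn in each library in all 5 Teff and Tex clusters. In Tn it was 37.7%, 41.2%, 31.5% and 39.8% in libraries 1 to 4. It was 45.9%, 52.1%, 39.9% and 59.5% in TIM-3+ Tex and 45.6%, 59.9%, 36.9% and 53.6% in TIGIT+ Teff.

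The difference between libraries in resting cells was found in most members and was larger in some than in others. In Tn and Tcm cells together, 28 members had at least 100 UMIs, and 17 of them had both library 1 and library 3 at least 2-fold above both library 2 and library 4. Of all 9404 genes tested 0.234% did so, and this comparison was set up after the values by library had been seen. Hist1h1b had 83.1, 7.65, 86.9 and 7.05 CPM in libraries 1 to 4, from 931, 45, 495 and 97 UMIs. Hist1h2ab had 38.8, 4.08, 48.4 and 4.07 CPM, Hist1h3c 14.6, 1.19, 27.4 and 1.60 CPM, and Hist1h2bm 15.9, 1.70, 25.1 and 1.82 CPM. In each of these genes the libraries fell into a high and a low pair.

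The other 11 members did not show this split in the same cells. Of these, 6 still differed at least 2-fold between the highest and the lowest library, so that 23 of the 28 members did so in all. Of all 9404 genes tested, 340 did so. Hist1h1e, the most counted member in these cells (3183 UMIs), had 115, 58.2, 138 and 55.3 CPM. The lower of libraries 1 and 3 was 1.98-fold the higher of libraries 2 and 4, so it fell just short of the split. Hist1h4d had 89.7, 60.9, 191 and 46.3 CPM, and Hist1h4c had 6.25, 4.08, 18.8 and 5.02 CPM, both highest in library 3. The remaining 5 differed less. Of these, Hist4h4 had 4.64, 4.59, 6.85 and 4.87 CPM in Tn and Tcm cells, Hist2h4 had 4.38, 4.93, 5.27 and 5.02 CPM, and Hist1h4i had 4.2, 6.12, 5.44 and 4.73 CPM. Hist1h1c had 44.9, 37.4, 67.8 and 33.9 CPM, with library 3 highest. Of the H2A genes, Hist1h2ap had 3.93, 3.74, 11.8 and 1.89 CPM and Hist1h2ac had 5.18, 3.74, 8.95 and 3.78 CPM, both highest in library 3. In cycling cells none of 43 members with at least 100 UMIs there had both libraries 1 and 3 at least 2-fold above both others. Of these members, 38 were highest in library 3. No share over all genes was taken in cycling cells, so these counts have no background beside them.

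**Figure D3:**
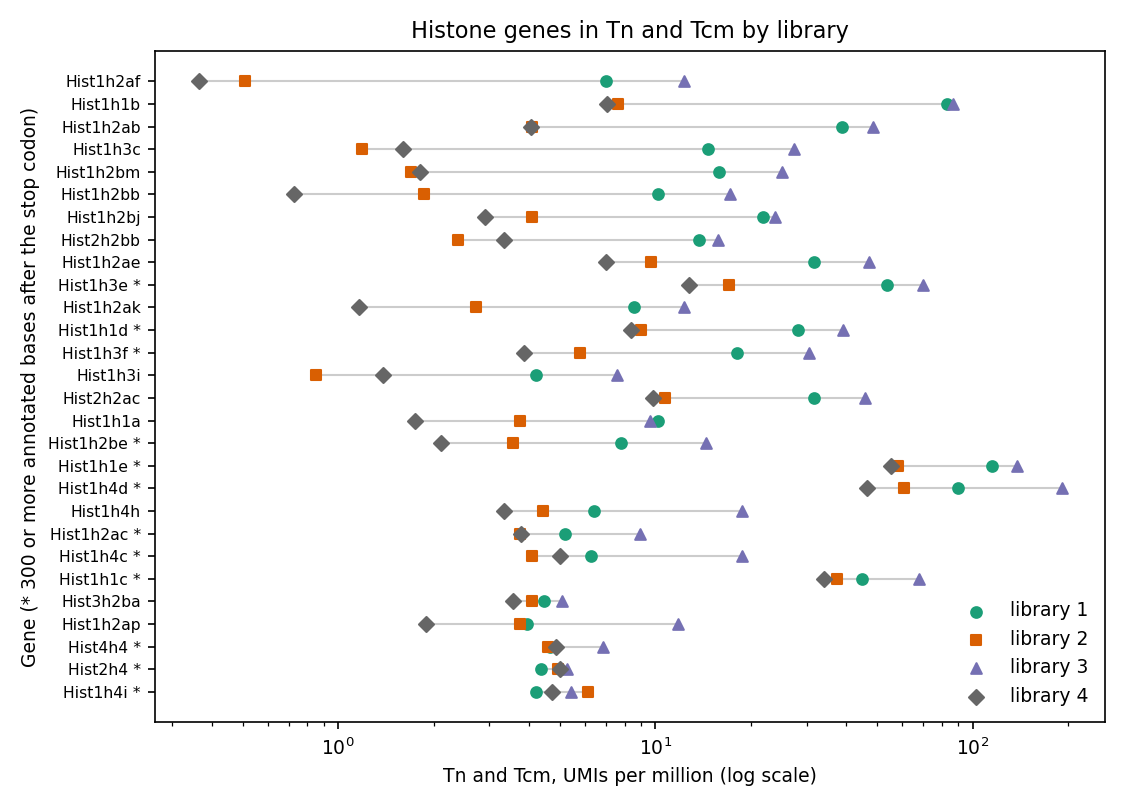
CPM in Tn and Tcm cells (log axis) of the 28 members with at least 100 UMIs there, one symbol per library, ordered by the ratio of the lower of libraries 1 and 3 to the higher of libraries 2 and 4. Members marked with a star have 300 or more annotated bases after the stop codon and lie mostly toward the bottom. There libraries 1 and 3 are not both at least 2-fold above libraries 2 and 4, while Hist1h2af, Hist1h1b and Hist1h2ab at the top are split.

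The split by library was found in more of the members with a short annotated 3′ end. Of 16 members with fewer than 300 bases annotated after the stop codon, 13 had libraries 1 and 3 both 2-fold above 2 and 4, and the ratio of the lower of 1 and 3 to the higher of 2 and 4 had a median of 3.69. Of 12 members with 300 or more bases, 4 did, with a median of 1.42. Hist1h1e, in this group, fell just short at 1.98. Of the 16, 5 (Hist1h1b, Hist1h2af, Hist1h2ak, Hist1h3i and Hist2h2bb) had under 20 bases annotated, so that their 3′ end is not known from the annotation, and all 5 were split. Of the other 11, 8 were split, with a median ratio of 3.26, and Hist1h2ap, Hist1h4h and Hist3h2ba were not. Summed, the short group had 306, 63.4, 415 and 51.8 CPM in Tn and Tcm cells of libraries 1 to 4 and the long group 383, 215, 596 and 186 CPM. In cycling cells the same groups had 2207, 2435, 3734 and 2350 CPM, and 1651, 1784, 2780 and 1833 CPM. The limit of 300 bases was chosen after these values had been seen, and the counts moved with it. With a limit of 50 bases 11 of 22 members in the long group and 6 of 6 in the short group were split, with 100 bases 6 of 15 and 11 of 13, and with 500 bases 2 of 9 and 15 of 19. Library preparation captures mRNA by its poly(A) tail, and whether the members' mRNAs here carried one was not measured.

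Sums over the variant, S phase and G2/M lists differed less between the 4 libraries in Tn and Tcm cells than the histone sum. The 6 erythroid markers differed more than these lists, with 3.39, 2.55, 10.7 and 2.54 CPM, highest in library 3. The part of free RNA in this was not tested. The histone variants, whose synthesis is mostly not tied to S phase, summed to 3643, 3699, 3612 and 3428 CPM, and the S phase list to 1051, 1064, 1037 and 1121 CPM. The G2/M list was 1399, 1251, 1438 and 1265 CPM, higher in libraries 1 and 3. Of its 54 genes 10 showed the split when no minimum of UMIs was set, and 33 of the 54 reached the minimum of 100 UMIs. No share over all genes was taken without the minimum, so the count of 10 has no background beside it. Nusap1, which acts on the spindle, had 5.18, 0.680, 4.56 and 0.654 CPM, and Mki67, below a 2-fold split, had 16.6, 7.14, 15.4 and 8.72 CPM. Of genes with at least 100 UMIs in these cells, 5 that are not members showed the split, and 4 of them are expressed in dividing cells. Ube2c, which drives the mitotic degradation of cyclins, had 15.7, 3.06, 11.4 and 3.05 CPM, Birc5 had 10.2, 3.57, 8.43 and 2.47 CPM, and Ccna2 (cyclin A2) had 4.82, 0.850, 6.14 and 0.872 CPM. Cdca3 and C230037L18Rik were the others, and all 5 were named after their values had been seen.

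The histone sum in Tn and Tcm was set against its level in cycling cells. It was 17.9%, 6.62%, 15.6% and 5.67% of the level in cycling cells of the same library. The proliferation gene Mki67 reached 1.86%, 1.51%, 0.946% and 2.0%, and Ube2c 3.10%, 0.849%, 2.18% and 0.629%. Histone mRNA was therefore at a higher share of its cycling level than either gene in all 4 libraries. It was not higher than the S list, which had 4979, 5237, 5511 and 5210 CPM in cycling cells. The S list in Tn and Tcm was at a larger share of its cycling level than the histone sum in each library. The G2/M list was at a larger share than the histone sum in libraries 2 and 4, and at a smaller share in libraries 1 and 3. Tn and Tcm cells were also split by depth into 3 groups of equal size per library. Member UMIs per cell in the shallowest and the deepest group were 4.69 and 5.84 in library 1, 1.69 and 2.68 in library 2, 7.79 and 9.70 in library 3, and 1.40 and 2.48 in library 4. In CPM these groups had 889 and 591, 340 and 255, 1354 and 860, and 258 and 234 in libraries 1 to 4. CPM was thus lower in the deepest group of each library. Each depth group of libraries 1 and 3 had more member UMIs per cell than any depth group of libraries 2 and 4.

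Inside the cycling cluster, cells were ordered within each library by the difference of S and G2/M list UMIs over all UMIs and divided at the median. The S-richer cells had 2901, 2698, 4518 and 3044 CPM of histone mRNA in libraries 1 to 4. The G2/M-richer cells had 5336, 6222, 9602 and 5725 CPM. The ratio was 0.509 over all libraries together (0.504 to 0.515) and 0.434 to 0.544 in single libraries, so histone mRNA was lower in the S-richer cells of each library. The S and G2/M lists held no member, and 142 of the 1928 cells had a difference, as a share of UMIs, within 0.001 of their library's median. Over all libraries together the S-richer cells held 6315 CPM of the S list and 7335 CPM of the G2/M list. In library 2 they held 6393 and 5550 CPM. The division is thus relative and does not separate cells in S phase from cells in G2/M. Over all libraries together the histone sum ran from 1566 CPM in the S-richest of 10 equal groups to 7884 and 7819 CPM in the last 2.

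**Figure D4:**
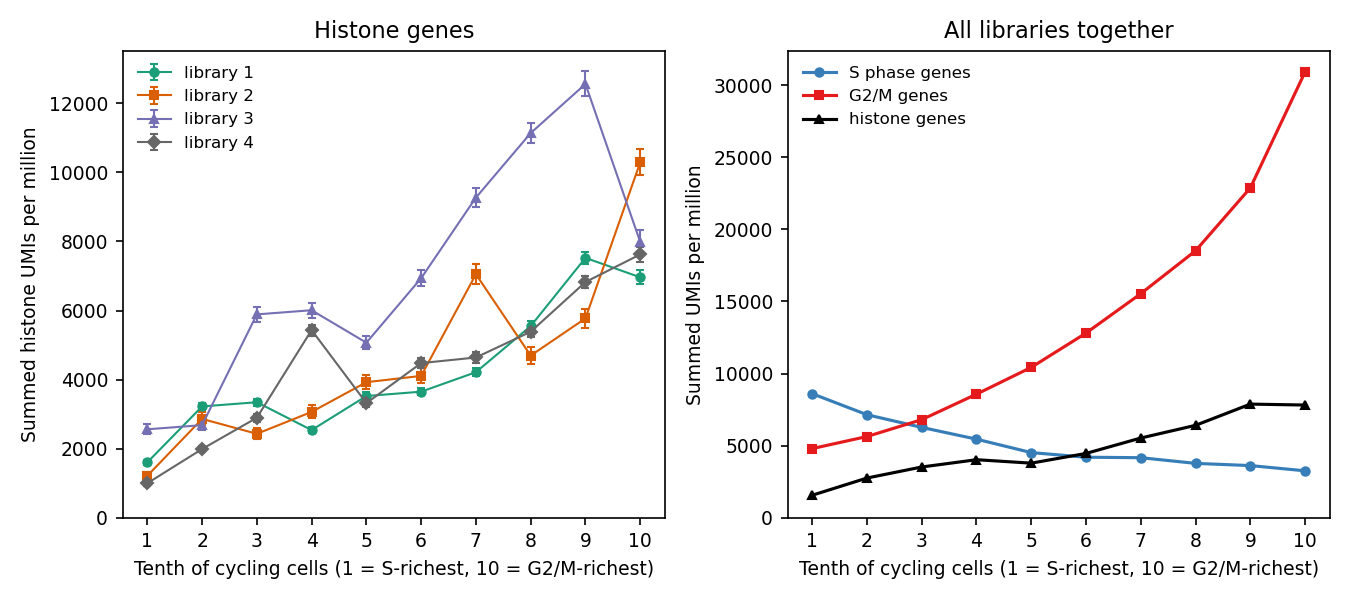
Left, summed histone CPM in 10 equal groups of the cycling cells, ordered within each library from S-richest (1) to G2/M-richest (10), with exact Poisson 95% intervals. Right, the same for all libraries together beside the S and G2/M lists: the S list falls from 8605 to 3259 CPM while the histone genes rise from 1566 to 7819 CPM.

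When the lists were taken separately, histone mRNA rose with both. Cycling cells were divided within each library into 3 equal groups (low, middle and high) by the share of S list UMIs and, independently, by that of G2/M list UMIs. Cells low in both had 1382 CPM of histone mRNA (1332 to 1434) and cells high in both had 11292 CPM (11122 to 11464), 8.17-fold more. Cells high in S and low in G2/M transcripts had 2600 CPM and cells low in S and high in G2/M transcripts 5283 CPM. At each level of the G2/M share and in each library, cells high in S transcripts exceeded cells low in them, in 12 of 12 comparisons, and the same held for the G2/M share at each level of the S share. The smallest of these groups held 14 cells. This division was chosen after the S-richer and G2/M-richer values had been seen.

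**Figure D5:**
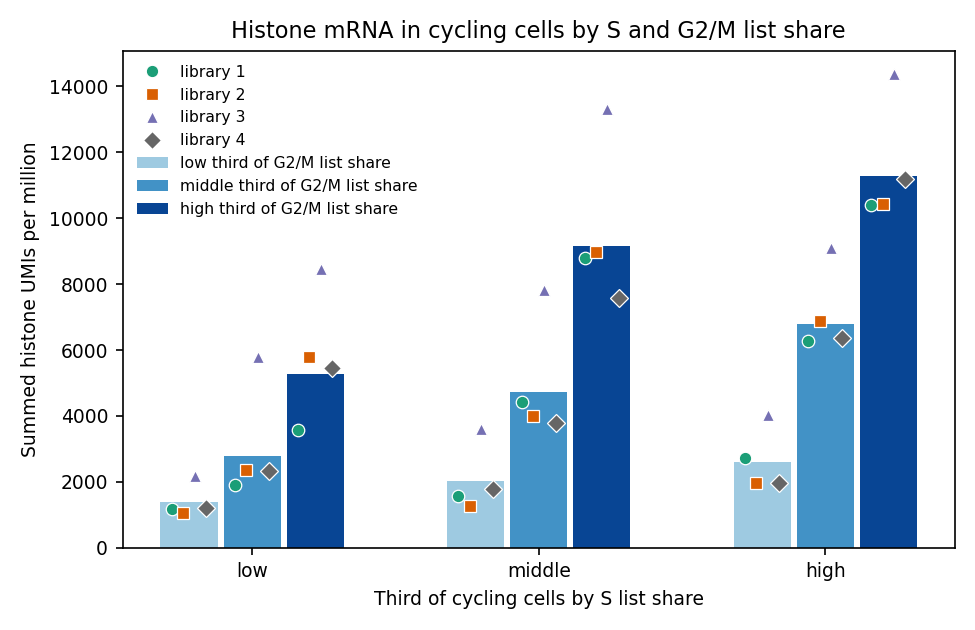
Summed histone CPM of cycling cells by low, middle and high S list share (horizontal axis) and G2/M list share (shade), bars for all libraries together and symbols for the 4 libraries. Bars rise from 1382 CPM where both shares are low to 11292 CPM where both are high.

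Nearly all members were lower in the S-richer than in the G2/M-richer cells, to different degrees. Of 48 members with at least 100 UMIs, 43 were lower in the S-richer cells with an interval below 1, against 26.4% of all genes with as many UMIs, and none was higher in them in all 4 libraries. The cells were ordered by G2/M genes, which are among all genes here. Over all libraries together H1 differed least as a class, with a ratio of 0.569 (0.560 to 0.579). H2A was at 0.466, H2B at 0.456, H3 at 0.459 and H4 at 0.486. In library 2, H1 and H3 were both at 0.476. Of the H1 genes, Hist1h1c, Hist1h1e and Hist1h1d were at 0.492, 0.503 and 0.509. Hist1h1a was nearly level over all libraries together, with 72.1 CPM in the S-richer and 76.2 CPM in the G2/M-richer cells (0.947, 0.867 to 1.04). Its library values differed in direction, at 0.944, 0.490, 0.867 and 1.27. Hist1h1b was at 0.647 (0.629 to 0.665). Hist1h3a was the 1 member with a ratio above 1 (1.17, 0.981 to 1.40), and its library values were 1.23, 1.19, 1.58 and 0.943. Hist2h2ab had the lowest ratio (0.277, 0.156 to 0.471, from 79 UMIs), and Hist1h2bb was at 0.339 (0.302 to 0.381, from 1425 UMIs). The H1 share of member UMIs fell from 51.3% in the S-richest of the 10 groups to 38.6% in the G2/M-richest, while the H2A share rose from 18.7% to 31.0%.

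Fewer of the genes that make and process histone mRNA differed. Of 20 genes for transcription and 3′ processing of histone mRNA, 6 were at least 2-fold higher in cycling cells than in Teff and Tex clusters (1 CPM added), with a median of 1.55-fold. Slbp, whose product binds the stem-loop, had 235, 272, 275 and 294 CPM in cycling cells and was 2.33-fold higher (2.25 to 2.42). The kinase Cdk2 and its partners Ccne1 and Ccne2, which activate histone transcription through NPAT, were 3.78-, 3.90- and 5.99-fold higher, and E2f1 4.46-fold. Npat itself was 1.49-fold higher (1.34 to 1.65). Eri1, an exonuclease of the stem-loop, was 2.11-fold higher, while Lsm10 of the U7 particle was 0.854-fold.

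Histone chaperones hand newly made histones to the replication fork. Of 21 chaperone genes 8 were at least 2-fold higher in cycling cells, with a median of 1.86-fold, and none was 2-fold lower. Asf1b, which passes H3 and H4 to the fork, was 12.5-fold higher (11.5 to 13.6), with 165, 172, 195 and 200 CPM in cycling cells. The chromatin assembly factor genes Chaf1a and Chaf1b were 5.39- and 2.74-fold higher, and Nasp, which shields newly made histones, 2.85-fold. The replication-independent chaperone genes Hira and Daxx had ratios of 1.31 and 0.739.

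Histone variants belong to the same protein families but are mostly not restricted to S phase. Of 10 variant genes in the table, 5 were at least 2-fold higher in cycling cells, with a median of 1.79-fold. H2afx was 7.96-fold higher (7.64 to 8.30) and Cenpa, the H3 variant of centromeres, 5.52-fold (5.30 to 5.75). H2afz was 2.93-fold higher, with 2017, 2237, 1783 and 2442 CPM in cycling cells. The H3.3 genes H3f3a and H3f3b, at 1.22- and 1.10-fold, and the macroH2A gene H2afy, at 1.08-fold, differed little between the clusters. In Tn and Tcm, H2afx had 68.1, 61.7, 70.0 and 63.5 CPM in libraries 1 to 4, without the split of the replication-dependent genes.

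The 10 genes outside the members whose level was most like the histone sum were Kpna2, Prc1, Ccna2, Cbx3, Nusap1, Ube2c, Depdc1a, Kif15, Kif11 and Sgo2a. Their Pearson r with the histone sum was 0.868 to 0.891, on log2(CPM + 10), across the 32 sums of a cluster in a library, among 4061 genes with at least 50 CPM in a cluster. These sums share libraries and depth, so r is a description. Ccna2, Prc1, Nusap1, Kif11 and Kif15 act in late S phase or in mitosis, and Cbx3 encodes a heterochromatin protein that had 85.6 CPM in Tn and 216 CPM in cycling cells.

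Counts of single members depend on how far their sequence is unique. Of all 90-base stretches in a member's annotated transcripts, 38 members had at least 50% that occur in no other gene's transcript and 26 had fewer, with median counts of 1163 and 125 UMIs. Hist2h2aa2 and Hist2h3c1 had none and only 4 and 8 UMIs. Hist1h2ap had 7.63% and Hist1h2ab 46.4%, whereas Hist1h1b had 100% and Hist1h4d 99.1%. Reads shared by near-identical copies could be split or dropped between them, so members with a low unique share are less certain. Genes that share a promoter region also differed widely in counts. Of 11 pairs of divergent neighbours with starts within 1 kb, Hist1h2ae and Hist1h2bg, 175 bases apart, had 18207 and 388 UMIs, and Hist1h2ag and Hist1h2bj, 269 bases apart, had 111 and 4172.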

How the data were processed

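The deposited count table holds raw UMI counts of 17561 genes in 11754 cells, which the authors made with Cell Ranger 7.00 on mm10 (per the labels), downsampling reads across libraries and keeping cells by UMI number, mitochondrial share and Cd3e/g and Cd8a. The mitochondrial share of the deposited cell table is a fraction and was not used in a calculation. Cluster names, Leiden numbers and library numbers are the authors', deposited as text or numbers. Doublets were not removed. Leaving out cells with more than 1 TRB chain was an alternative.

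Receptor contig chains were deposited as text and served only that alternative. Symbols and coordinates came from GENCODE M21 (GRCm38), which named 17534 genes. The members and lists were chosen with earlier results of these data known. Named genes were members with at least 100 UMIs, genes of fixed lists, and the 10 most like the histone sum. Others are said to be named afterwards. UMIs were summed per cluster and library. Calls needed 20 UMIs, a 2-fold ratio and 1 CPM added to both sides. Cells were thinned to 2500 UMIs with seed 7. A count of 0 allows up to 3 counts. Counting and intervals were tested on simulated data. Alternatives changed the depth, weighting, labels, denominator, cells, members, thresholds and libraries. Scripts ran under Python 3.11.15 (pandas 2.3.3, scipy 1.17.1, numpy 2.4.6; plots with matplotlib 3.10.9).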

Additional observations from a re-analysis of the deposited data

How the results depend on the processing

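No paired analysis was possible because no label pairs a library with a treatment and no result comes from a test. The log2 ratio of cycling cells to Teff and Tex clusters (2.86) stayed above 2 everywhere. It was 2.63 with cells thinned to 2500 UMIs, 2.62 as a mean over cells, 2.96 without Hist1h1e, 2.90 without H1, 2.76 with mitochondrial and ribosomal protein genes left out of the denominator, and 3.07 without cells holding macrophage, plasma or B cell UMIs (1254 cells left). Without non-cycling cells with 3 or more cycle list UMIs it was 3.24, from only 9 Teff and Tex cells with 15 member UMIs. Leaving out 1 library gave 2.66 to 3.17. The step from Tn up to Teff and Tex, 0.27 on the log2 scale, varied more. In the order above it was 0.50, 0.48, 0.15, 0.054, -0.036 (so reversed by that denominator) and 0.68, with no Tn cell left under the cycle list limit, and 0.33 by Leiden number. Leaving out 1 library gave 0.18 (without library 2) to 0.53 (without library 3). The log2 ratio of S-richer to G2/M-richer cells (-0.97) was -1.36 between the outer of 3 equal groups, -0.99 thinned and -1.01 without histone supply genes in the S list, and -1.01 to -0.94 leaving out 1 library. The share of cycling cells with a member UMI (99.7%) was 92.7% thinned, 99.1% for at least 2 UMIs, and 99.5% to 99.9% leaving out 1 library. The H1 share (43.0%) was 33.0% without Hist1h1e and 40.0% to 44.4% leaving out 1 library. Chosen after seeing the data, leaving out libraries 1 and 3 gave 3.45, 0.73, -1.0, 99.2% and 40.9% for these 5 results, and leaving out libraries 2 and 4 gave 2.46 and 0.057 for the first 2. The causes were not tested. The count of 48 members at least 2-fold higher in cycling cells stayed within 1.5 times under each alternative tried (41 to 53).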
